A study of Mus musculus with 54 samples.

Results

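The 83 genes described here encode nuclear subunits of the 5 oxidative phosphorylation complexes, out of 47069 genes in the count table. They were chosen by symbol and not by any measured value: protein-coding genes named Ndufa, Ndufb, Ndufc, Ndufs or Ndufv with a number, Sdha to Sdhd, the Uqcr genes and Cyc1, the Cox4 to Cox8 genes followed by a, b or c, and the Atp5 genes, without the Ndufaf assembly factors. By symbol, 37 fell in complex I, 4 in complex II, 9 in complex III, 16 in complex IV and 17 in complex V. The filter on low counts kept 82 of them, and the remaining member, Cox8c, the testis form of a complex IV subunit, had at most 0.0406 CPM (counts scaled to the library's size) in any library.

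Oxidative phosphorylation makes most of the ATP that neurons use. Complexes I and II pass electrons from NADH and succinate to ubiquinone, complex III passes them on to cytochrome c, complex IV hands them to oxygen, and complex V turns the proton gradient built by complexes I, III and IV into ATP. Most subunits come from nuclear genes and a minority from mitochondrial DNA, so that both sets of transcripts are needed for every complex except complex II, and several complex IV subunits have one form in most tissues and another in heart, muscle or germ cells.

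RNA was sequenced from cortex, striatum and cerebellum of 18 mice on a C57BL/6 background at 8 weeks, which gave 54 libraries. The Mbd5+/GT group (10 mice) was heterozygous for a gene trap in intron 2 of Mbd5, carried constitutively and not limited to a cell type, and the WT group (8 mice) were littermates without the trap. Of 3 litters, the first gave 3 Mbd5+/GT and 3 WT females and the second 4 Mbd5+/GT males with 1 WT male. Litter 3 was of mixed sex, with 3 Mbd5+/GT animals and 4 WT animals. The allele is hypomorphic, and the study asked what partial loss of Mbd5, a gene deleted in a neurodevelopmental syndrome, changes in each region.

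Libraries held 25295973 to 49027399 reads on genes (median 29073866), and the 83 genes together took 0.745% to 1.66% of them. Mbd5 itself was at 46.0 ± 4.44 CPM (SD) in Mbd5+/GT cortex against 65.9 ± 9.56 in WT cortex, at 36.1 ± 5.01 against 48.1 ± 8.49 in striatum, and at 42.3 ± 10.9 against 55.0 ± 10.8 in cerebellum. Some libraries went against their region label. The summed markers of cerebellar granule cells in the cerebellum library of Mbd5+/GT mouse M755 were 3.42% of the cerebellar median, and in that of WT mouse M754 they were 34.1%. The summed markers of striatal neurons were 7.5%, 19.8%, 37.3%, 41.9% and 47.4% of the striatal median in the libraries of WT mice M754 and M761 and Mbd5+/GT mice M763, M756 and M755. No cortex library fell under 50% of its median, but striatal markers also ran from 179.0 to 2012 CPM in cortex libraries, against 270.0 to 7983 in striatum. Counts below are therefore also given without the 7 libraries under 50%. The striatum libraries of 2 WT mice of litter 3 were labelled as repeated.

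The promoters of the members shared letters known from nuclear genes for mitochondria. RefSeq start sites on GRCm38.p6 were matched for 66 of the 83 members, which gave 71 windows of 300 bases (250 before the start site and 50 after), and all 32851 windows were searched on both strands. The palindromic letters bound by NRF1 (the first run of capitals in the Cox6a1 promoter below) stood in 7.04% of member windows and 0.971% of all windows, and with the fifth base free, which includes the former, in 25.4% and 4.6%. The ETS letters CCGGAAG, which GABP binds, stood in 22.5% of member windows and 8.86% of all. The YY1 letters stood in 7.04% and 0.852%, and with the third base free in 8.45% and 1.36%. The SP1 letters GGGGCGGGG stood in 14.1% and 11.4%. By complex, the NRF1 letters with 1 base free were found in 7 of 32 matched members of complex I, 2 of 3 of complex II, 1 of 5 of complex III, 1 of 13 of complex IV and 6 of 13 of complex V. A match describes letters and not a bound site. The promoters below belong to some of the members that the comparisons turn on, and all of them hold such letters. The windows of Ndufb2, Cox7a1, Cox7b2 and Cox8b, which also differed between regions, hold none of the letters searched. A link between letters and differences was not tested. Promoters are given 5′ to 3′ on the gene's strand, up to the base before the start site, with NRF1, ETS and SP1 letters on either strand in capitals. Cox6a1, which lies on the minus strand at chr5:115348959-115349208 and encodes a complex IV subunit that was higher in striatum than in cortex and lower in cerebellum, holds NRF1 and ETS letters, as does Sdhd, the membrane anchor of complex II that was higher in cerebellum, on the minus strand at chr9:50603850-50604099. Uqcr11 (chr10:80406822-80407071) and Atp5e (chr2:174464102-174464351), both on the minus strand, rose the most of their complexes in striatum over cortex and hold ETS letters, in Atp5e together with SP1 letters.
Cox6a1: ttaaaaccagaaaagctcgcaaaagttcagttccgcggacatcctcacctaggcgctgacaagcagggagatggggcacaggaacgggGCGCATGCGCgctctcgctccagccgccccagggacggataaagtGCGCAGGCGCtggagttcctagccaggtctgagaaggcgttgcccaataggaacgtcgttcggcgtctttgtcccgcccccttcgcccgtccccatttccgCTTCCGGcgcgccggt
Sdhd: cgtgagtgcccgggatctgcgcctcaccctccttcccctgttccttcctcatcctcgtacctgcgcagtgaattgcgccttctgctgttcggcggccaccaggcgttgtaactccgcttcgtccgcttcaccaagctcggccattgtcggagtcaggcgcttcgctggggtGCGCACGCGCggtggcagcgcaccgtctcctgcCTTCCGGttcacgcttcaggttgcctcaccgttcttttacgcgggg
Uqcr11: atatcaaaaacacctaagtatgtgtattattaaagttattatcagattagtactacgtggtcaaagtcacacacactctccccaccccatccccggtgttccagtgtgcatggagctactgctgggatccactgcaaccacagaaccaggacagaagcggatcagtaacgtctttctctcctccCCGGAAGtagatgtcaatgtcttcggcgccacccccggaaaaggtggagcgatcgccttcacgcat
Atp5e: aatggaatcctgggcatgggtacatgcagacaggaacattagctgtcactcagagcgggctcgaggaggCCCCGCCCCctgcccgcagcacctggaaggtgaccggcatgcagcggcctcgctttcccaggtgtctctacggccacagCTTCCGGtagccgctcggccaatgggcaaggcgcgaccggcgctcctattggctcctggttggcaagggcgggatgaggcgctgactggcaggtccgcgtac

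Levels were compared between genes as the median CPM per kilobase of annotated exon over the 18 libraries of a region. In cortex the complex medians were 46.8 for complex I, 56.1 for II, 71.9 for III, 70.1 for IV (13 members at 1 CPM or more) and 57.8 for V. In striatum they were 61.9, 64.9, 82.1, 96.3 and 84.3, and in cerebellum 52.4, 67.1, 96.4, 77.1 and 67.4. Complex I thus had the lowest median in each region on this scale. Ndufa4, a small subunit first assigned to complex I and now placed with complex IV, was the most abundant gene of the Nduf group (145.4 in cortex, 184.5 in striatum, 186.8 in cerebellum). Sdha, the flavoprotein of complex II, led its complex (95.8, 98.5 and 116.9). In complex IV the leading gene was Cox8a, a small subunit present in most tissues, at 392.6, 498.5 and 293.0. In complex V, Atp5a1, the alpha subunit of the F1 head, led in cortex (238.4), and Atp5b, the beta subunit that carries the catalytic sites, led in striatum (294.1) and cerebellum (325.0). The order depends on the length used: per kilobase of the principal transcript, Atp5b led all members in the 3 regions (519.1, 650.5 and 718.6) and Cox8a was at 441.9, 561.0 and 329.8.

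The first comparison asked how the complexes differ between regions. Striatum had more of nearly every complex than cortex. Of 82 members, 69 were higher in striatum and 1 was lower by the quasi-likelihood test of edgeR, Benjamini-Hochberg adjusted over all genes, where 28.9% of all 20477 genes were higher and 30.1% lower. The median member was 1.31-fold higher (log2 0.39, against -0.00173 for all genes tested). Higher in striatum were 32 of 37 members of complex I, 2 of 4 of complex II, 8 of 9 of complex III, 12 of 15 of complex IV and 15 of 17 of complex V, and the medians were 0.40, 0.19, 0.41, 0.39 and 0.42 on the log2 scale. Complex II was the complex with the smallest difference. The count was 71 higher and 1 lower without the 7 libraries under 50% of their own markers, and 69 and 0 in WT mice alone. For these refits the share of all genes is not given here. Groups overlapped for each of the 82 members, a gap between the 2 regions' ranges being found in 0.327% of all genes. Within a mouse the mean log2 CPM of the 82 members was higher in striatum than in cortex in 15 of 18 mice, by a median of 0.40. Beside this, the summed oligodendrocyte markers ran from 3314 to 7863 CPM in cortex and from 5589 to 17120 CPM in striatum, and their part in the difference was not tested. In bulk tissue, fewer cells of a type and less RNA per cell cannot be told apart.

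**Figure D1:**
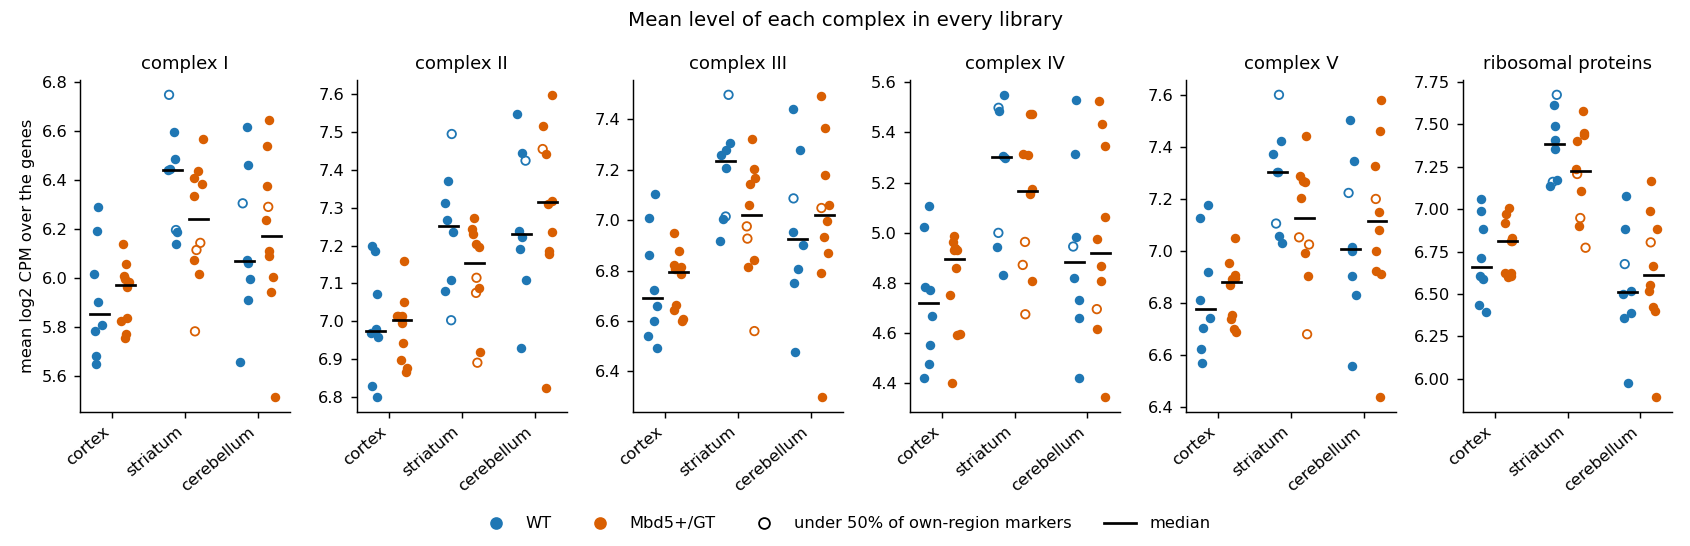
Mean log2 CPM (vertical axis) over the members of each complex that passed the filter, and over 82 ribosomal protein genes in the last panel, for each of the 54 libraries by region and genotype. Horizontal bars are group medians and open points mark the 7 libraries under 50% of their region's own markers. The WT medians of all 5 complexes are highest in striatum, for complex II by little (7.25 against 7.23 in cerebellum). The Mbd5+/GT medians of I, IV and V are also highest in striatum. That of complex II is highest in cerebellum (7.31 against 7.15 in striatum), and that of complex III is 7.02 in both. The libraries of a region span 1.32- to 2.28-fold in the 5 complexes.

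Cerebellum also had more of the complexes than cortex, but with another order among them. There 46 members were higher and 4 lower by edgeR's quasi-likelihood test with the same adjustment, where 35.5% of all genes were higher and 33.3% lower, and the median member was 1.19-fold higher (log2 0.255, against 0.02 for all genes tested). Higher were 21 of 37 members of complex I (1 lower), 3 of 4 of complex II, 6 of 9 of complex III, 6 of 15 of complex IV (3 lower) and 10 of 17 of complex V. The medians were 0.25, 0.37, 0.30, 0.15 and 0.31, so complex II had the largest median here and complex IV the smallest. In WT mice alone 30 were higher and 2 lower, and without the 7 libraries named above 44 were higher and 4 lower. The mean over members was higher in cerebellum in 15 of 18 mice (median difference 0.29). Between cerebellum and striatum, 17 members were higher in cerebellum and 37 lower, where 38.0% of all genes were higher and 37.3% lower. The medians were -0.19 for complex I, 0.20 for II, -0.06 for III, -0.30 for IV and -0.05 for V. Complex II was higher in cerebellum in 3 of its 4 members while 18 of 37 members of complex I and 8 of 15 of complex IV were lower. Among these 3, Sdhc (log2 0.14) lost its call under most other settings of the analysis. In WT mice alone 6 were higher in cerebellum and 39 lower, and without the 7 libraries 10 were higher and 41 lower. The shares of all genes given here are those of the fit on all 54 libraries. Counts in WT mice alone or without the 7 libraries are therefore not read against them.

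**Figure D2:**
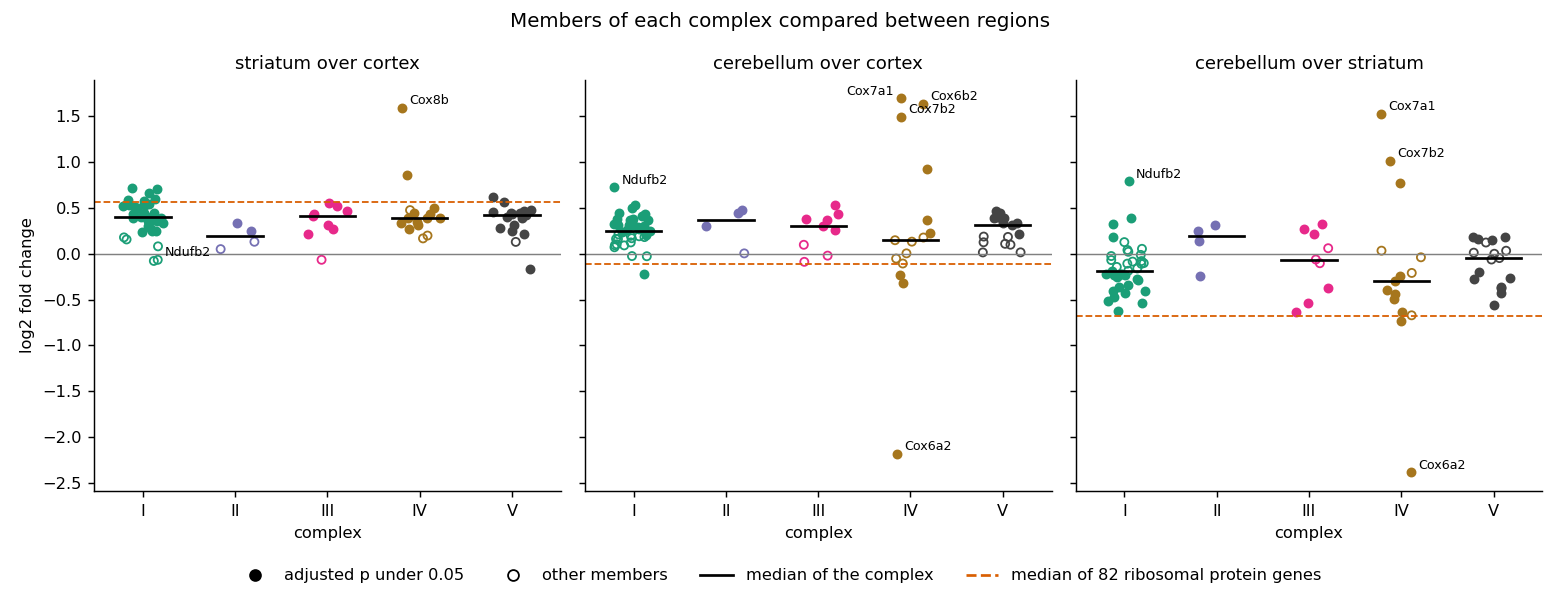
The log2 fold change (vertical axis) of the 82 members by complex (horizontal axis) in the 3 comparisons between regions, each point 1 gene, filled where the adjusted p was under 0.05. Bars are complex medians and the dashed line is the median of 82 ribosomal protein genes (0.57, -0.11 and -0.68); the 5 complex medians lie under that line in striatum over cortex (0.19 to 0.42) and above it in cerebellum over cortex (0.15 to 0.37) and over striatum (-0.30 to 0.20).

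The 3 comparisons share their libraries, so calls were set side by side per gene rather than counted as separate evidence. In 26 members striatum was above both cortex and cerebellum, with no call between the latter (31.7% of members and 7.76% of all genes tested). In 23 members striatum and cerebellum were both above cortex with no call between them (28.0% and 6.06%). In 10 members cerebellum was above both other regions, which had no call between them (12.2%, near the 12.3% of all genes): Ndufa9, Ndufb2, Ndufc2, Ndufs1, Sdha, Sdhd, Uqcrc2, Cox7a1, Cox7b2 and Atp5f1. In 6 members cerebellum was above striatum and striatum above cortex (7.32% and 5.24%): Sdhc, Cyc1, Uqcrfs1, Cox6b2, Atp5a1 and Atp5b. Of these, Sdhc lost its call between cerebellum and striatum under most other settings of the analysis. In 7 the order was striatum, cerebellum, cortex (8.54% and 1.4%). Cox6a1, Cox8a and Ndufb9 went from striatum over cortex to cerebellum (3.66% and 7.21%), and Ndufb6 had no call in any pair.

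In complex I, the subunits that carry out catalysis, among them the core of the NADH-oxidizing arm encoded by Ndufs1, Ndufv1 and Ndufv2, are accompanied by accessory subunits. These 3 core genes were all higher in cerebellum than in cortex (log2 0.29 to 0.32), and 2 of the 3 were higher in striatum. Of the 30 genes counted as accessory, which by symbol include Ndufa4 and Ndufa4l2, 26 were higher in striatum and 15 in cerebellum, with 1 lower. Of all genes, 28.9% were higher in striatum than in cortex, and 35.5% were higher and 33.3% lower in cerebellum than in cortex.

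Ndufb2, an accessory subunit of the membrane arm, had the largest difference of complex I between cerebellum and either other region. It ran from 20.1 to 31.3 CPM in cortex (median 26.0), from 20.4 to 29.8 in striatum (median 24.4) and from 32.3 to 49.9 in cerebellum (median 43.2). Each cerebellum library lay above each library of the other regions, including the one of mouse M755 that was low in granule cell markers, and cerebellum was above cortex in 18 of 18 mice. The log2 difference was 0.72 ± 0.05 (SE; edgeR adjusted p = 1.17e-17) against cortex and 0.79 ± 0.05 (adjusted p = 4.02e-19) against striatum. Ndufs1, the largest iron-sulfur subunit, was singled out after its values were seen because its cerebellar range also stood apart: 191.5 to 228.2 CPM against 142.6 to 182.8 in cortex and 129.1 to 182.3 in striatum. Its log2 difference from cortex was 0.32 ± 0.04 (edgeR adjusted p = 1.53e-09). A gap between the ranges of 18 libraries was found for 3 members between cerebellum and cortex (11.9% of all genes) and for 2 between cerebellum and striatum (9.08%). Exons of Ndufb2 overlap those of Braf on the other strand and exons of Ndufs1 those of Eef1b2 on the other strand. Whether the counting used strand is not given in the sources used here, so reads of such pairs may not be told apart. In all, 28 members share exon bases with another annotated gene.

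Ndufb9, a further accessory subunit, went the other way. Its CPM ran from 110.1 to 229.5 in striatum (median 174.6), from 103.4 to 173.3 in cortex (134.7) and from 63.8 to 163.4 in cerebellum (105.7), and the ranges overlapped. It was lower in cerebellum by 0.62 ± 0.09 than in striatum (edgeR adjusted p = 5.79e-08). Ndufv3, a subunit of the NADH-oxidizing arm known in a short and a long form, was at 54.2 CPM in cortex, 72.8 in striatum and 73.7 in cerebellum (medians), with log2 differences from cortex of 0.51 ± 0.08 and 0.53 ± 0.08 (edgeR adjusted p = 7.71e-07 and 9.03e-08). Ndufa13, which is also known as a cell-death regulator, was at 99.6, 141.5 and 115.7 CPM.

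The 4 genes of complex II did not move as 1 block. The catalytic head is made of Sdha and the iron-sulfur protein Sdhb, and the membrane anchors are Sdhc and Sdhd. Sdha was at 364.8 to 452.7 CPM in cortex (median 395.1), 371.2 to 485.4 in striatum (406.4) and 450.1 to 603.8 in cerebellum (482.5). It was higher in cerebellum than in cortex by 0.30 ± 0.04 on the log2 scale (edgeR adjusted p = 1.63e-09), with 18 of 18 mice in that direction, while striatum and cortex did not pass the test (adjusted p = 0.267). Sdhb, its partner in the head, was at a median of 109.5 CPM in cortex, 132.6 in striatum and 107.4 in cerebellum, higher in striatum than in cortex by 0.25 ± 0.08 (edgeR adjusted p = 0.0077) and lower in cerebellum than in striatum by 0.25 ± 0.08 (adjusted p = 0.00618). The anchors were both higher in cerebellum than in cortex, Sdhc by 0.47 ± 0.06 (median 104.7 against 74.2 CPM) and Sdhd by 0.44 ± 0.06 (106.2 against 77.9 CPM), with edgeR adjusted p of 6.92e-09 and 3.03e-08. The members of the head therefore had opposite calls between cerebellum and striatum, where Sdha was higher by 0.25 ± 0.04 (edgeR adjusted p = 1.22e-07).

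The patterns of complex III differed between its members. Cyc1 and Uqcrfs1, which encode the electron-carrying cytochrome c1 and Rieske protein, were both called higher in cerebellum than in cortex and in striatum. Cyc1 was at a median of 114.3 CPM in cortex (97.9 to 153.7), 142.7 in striatum (112.0 to 209.3) and 167.9 in cerebellum (110.5 to 246.6). Its log2 difference between cerebellum and cortex was 0.53 ± 0.08 (edgeR adjusted p = 7.58e-08), with overlapping ranges. Uqcrc2, 1 of the core proteins, was higher in cerebellum than in striatum by 0.33 ± 0.04 (medians 226.2 and 180.2 CPM, edgeR adjusted p = 4.01e-09). Uqcrc1, the other, was higher than cortex in both striatum (0.41) and cerebellum (0.30) with no call between these, the pattern of the small subunits Uqcrb and Uqcrh. The 5 small subunits were all higher in striatum than in cortex (0.32 to 0.55), where 28.9% of all genes were. Of the 5, 2 were higher in cerebellum than in cortex (35.5% of all genes). In cerebellum against striatum 3 were lower (37.3% of all genes). Uqcr11, a small subunit at the edge of the complex, was at a median of 74.6 CPM in cortex, 105.3 in striatum and 67.2 in cerebellum, higher in striatum than in cortex by 0.55 ± 0.12 (adjusted p = 0.000106) and lower in cerebellum than in striatum by 0.64 ± 0.12 (adjusted p = 4.72e-06).

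In complex V, the 5 genes of the F1 head and central stalk were all higher in striatum than in cortex (0.21 to 0.61) and 3 were higher in cerebellum. Atp5e and Atp5d, the epsilon and delta subunits of the central stalk, had medians in striatum of 109.0 and 194.5 CPM, above 71.9 and 123.6 in cortex and 81.0 and 129.9 in cerebellum. Their log2 differences between striatum and cortex were 0.61 ± 0.13 and 0.57 ± 0.12 (edgeR adjusted p = 0.000109 and 4.15e-05), and both were lower in cerebellum than in striatum, by 0.43 ± 0.13 and 0.55 ± 0.12 (adjusted p = 0.00362 and 2.86e-05). The 4 genes of the peripheral stalk, which holds the head still, were all higher in cerebellum than in cortex (0.31 to 0.47). Atp5h, its d subunit, had the largest of these differences (0.47 ± 0.09, edgeR adjusted p = 1.94e-05, medians 216.8 and 162.2 CPM), and Atp5f1, its b subunit, was at medians of 278.2, 247.1 and 222.2 CPM in cerebellum, striatum and cortex. The 4 small membrane subunits were all higher in striatum than in cortex (0.45 to 0.47), 1 was higher in cerebellum than in cortex, and 3 were lower in cerebellum than in striatum. Of all genes, 28.9% were higher in striatum than in cortex and 35.5% higher in cerebellum than in cortex. In cerebellum against striatum 37.3% of all genes were lower. Atp5s, a coupling factor, was the member lower in striatum than in cortex (by 0.17 ± 0.06, edgeR adjusted p = 0.0224, medians 15.1 and 16.7 CPM), and it lost this call under 5 of the alternatives, 1 of them WT mice alone.

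The size of the difference between striatum and cortex went with transcript length. Over the 82 members, Pearson's r between the log2 difference and the log length of the principal transcript was -0.5 and Spearman's rho -0.49, given as a description since genes of a library share its depth and RNA. Short transcripts outside the complexes were also higher in striatum. Under 600 bases the median was 0.50 for 21 members and 0.36 for 170 other protein-coding genes without ribosomal proteins, from 600 to under 1000 bases 0.39 (28) and 0.38 (731), and from 1000 to under 1500 bases 0.33 (14) and 0.28 (1501). From 1500 bases on, the median was 0.27 for 19 members and -0.06 for 13439 other genes. The 82 ribosomal protein genes, which are short and abundant, were higher in striatum in 80 cases (median 0.57). In cerebellum over cortex the members stood above other genes of their length in each class: 0.19 against -0.07, 0.22 against 0.10, 0.21 against 0.11 and 0.32 against 0.03, while ribosomal protein genes were higher in 6 cases and lower in 31 (median -0.11). The part of transcript length or RNA quality in these differences was not tested.

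**Figure D3:**
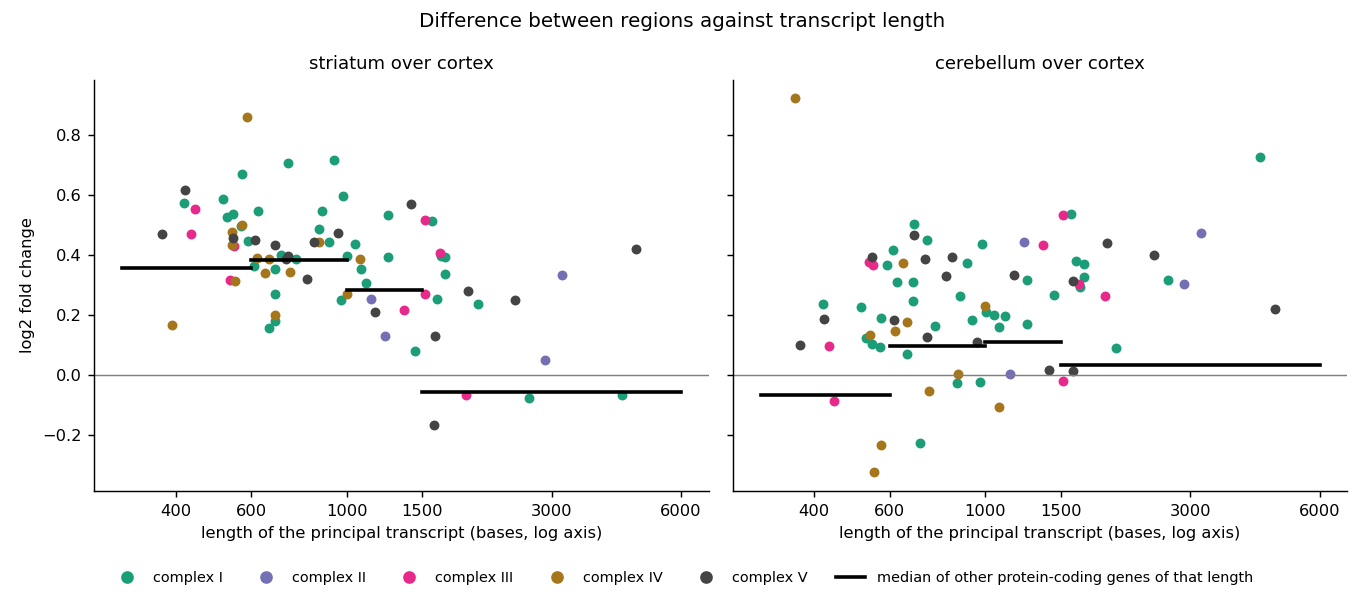
Log2 fold change (vertical axis) against the length of the principal transcript in bases (log horizontal axis) for members, coloured by complex, in striatum over cortex and cerebellum over cortex. Members with a change over 1 in size (Cox8b on the left, Cox6a2, Cox6b2, Cox7a1 and Cox7b2 on the right) are not drawn; black lines are medians of other protein-coding genes in 4 length classes, which on the left fall from 0.36 under 600 bases to -0.06 from 1500 bases on.

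Complex IV held the largest single differences, and they lay in genes for the rarer forms of its subunits. Cox6a2, the heart and muscle form of subunit 6a, was at 3.07 to 8.73 CPM in cortex (median 4.95), 2.21 to 9.18 in striatum (6.07) and 0.0627 to 2.73 in cerebellum (1.18). Each cerebellum library lay below each cortex library, and cerebellum was the lowest region in 18 of 18 mice. The log2 difference between cerebellum and cortex was -2.18 ± 0.21 (edgeR adjusted p = 1.46e-13) and that between cerebellum and striatum -2.38 ± 0.21 (adjusted p = 7.86e-15). Cox6a1, the common form, was at 192.3, 273.1 and 170.9 CPM in cortex, striatum and cerebellum (medians). Per kilobase of exon, Cox6a2 made up 2.57% of the pair in cortex (median of 18 libraries), 2.04% in striatum and 0.766% in cerebellum. The lowest value, 2 reads, came from the cerebellum library of mouse M755 that was low in granule cell markers, and the exons of Cox6a2 overlap those of Itgad on the other strand.

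Cox7a1, the heart and muscle form of subunit 7a, went the opposite way. It was at 0.792 to 2.30 CPM in cortex (median 1.32), 0.608 to 2.59 in striatum (1.43) and 1.78 to 7.47 in cerebellum (3.94). The highest cortex libraries overlapped the lowest cerebellum libraries, yet cerebellum exceeded cortex in 18 of 18 mice. The difference was 1.69 ± 0.16 against cortex and 1.53 ± 0.16 against striatum (edgeR adjusted p = 1.64e-13 and 3.14e-12). Its share of the subunit, beside Cox7a2 and Cox7a2l, was 3.75% in cerebellum against 1.2% in cortex and 1.01% in striatum. Cox7a2, the form of most tissues, was at medians of 124.7, 164.0 and 139.0 CPM, and Cox7a2l, a related gene whose product helps join complexes into supercomplexes, at 103.6, 142.3 and 88.9 CPM. Cox7a2l was lower in cerebellum than in striatum by 0.49 ± 0.08 (edgeR adjusted p = 6.27e-07). The summed markers of striated muscle and brown fat were between 5.80 and 15.3 CPM in the libraries with the lowest and highest values of Cox6a2 and Cox7a1.

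Cox6b2, the testis form of subunit 6b, was at medians of 1.74 CPM in cortex (1.09 to 2.86), 2.92 in striatum (1.73 to 5.08) and 5.21 in cerebellum (2.32 to 8.42). All 3 pairs of regions passed the test, with log2 differences of 0.86 ± 0.15, 1.63 ± 0.15 and 0.77 ± 0.14 for striatum over cortex, cerebellum over cortex and cerebellum over striatum (edgeR adjusted p = 2.42e-06, 2.24e-14 and 3.6e-06). Its median share beside Cox6b1 was 0.697%, 0.914% and 2.12% in these regions, and Cox6b1, the common form, was at medians of 144.2, 202.0 and 162.4 CPM. Cox7b, the common form of subunit 7b, was at medians of 140.5, 173.5 and 163.8 CPM in cortex, striatum and cerebellum. Cox7b2, its testis form, stayed under 2 CPM in all libraries (medians 0.182, 0.261 and 0.354 CPM) and was called higher in cerebellum than in cortex (1.49 ± 0.37, adjusted p = 0.000423), with cerebellar values from 0.0338 to 1.99 CPM that spanned both other regions.

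Cox8b, a muscle and brown fat form of subunit 8, was at 0 to 0.898 CPM in cortex (median 0.234), 0.0701 to 4.39 in striatum (0.479) and 0.182 to 1.13 in cerebellum (0.441). It was higher in striatum than in cortex by 1.59 ± 0.40 (edgeR adjusted p = 0.000661). The 2 highest striatum libraries, 4.39 and 2.95 CPM, had summed choroid plexus markers of 4044 and 3854 CPM, against group medians of 132.2 in Mbd5+/GT and 81.0 in WT striatum, while WT mouse M751, with the highest sum of 6005 CPM, had 1.41 CPM of Cox8b. The part of choroid plexus RNA was not tested. Cox8a, the common form, was higher in striatum than in cortex by 0.31 ± 0.10 and lower in cerebellum than in cortex by 0.32 ± 0.10 (adjusted p = 0.00864 and 0.00513, medians 308.6, 243.0 and 181.4 CPM in striatum, cortex and cerebellum). Outside complex IV by symbol, Ndufa4l2, a form of Ndufa4 that hypoxia is known to induce, was higher in striatum (median 3.07 CPM) than in cortex (1.81) and cerebellum (2.05), by 0.71 ± 0.15 and 0.53 ± 0.14 (adjusted p = 4.61e-05 and 0.00096). Ndufa4 was at medians of 200.8, 254.8 and 257.9 CPM in cortex, striatum and cerebellum.

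Atp5g1, Atp5g2 and Atp5g3 encode the same mature c subunit of the complex V rotor ring and differ in their import sequences. All 3 were higher in striatum than in cortex, by 0.42 ± 0.08, 0.40 ± 0.07 and 0.39 ± 0.09 (edgeR adjusted p = 1.95e-05, 3.42e-06 and 0.000483). In cerebellum over cortex, Atp5g3 was higher by 0.39 ± 0.09 and Atp5g1 by 0.22 ± 0.08 (adjusted p = 0.00031 and 0.0146), and Atp5g2 did not pass (adjusted p = 0.101). Per kilobase of exon, Atp5g3 made up 72.8%, 72.6% and 75.7% of the 3 genes in cortex, striatum and cerebellum. Of the 50-base stretches of Atp5g2 transcripts, 38.3% also occur in other genes, as do over 20% of those of Uqcrb, Cox7c and Ndufs5, so that their counts are uncertain; 42 members share no such stretch.

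**Figure D4:**
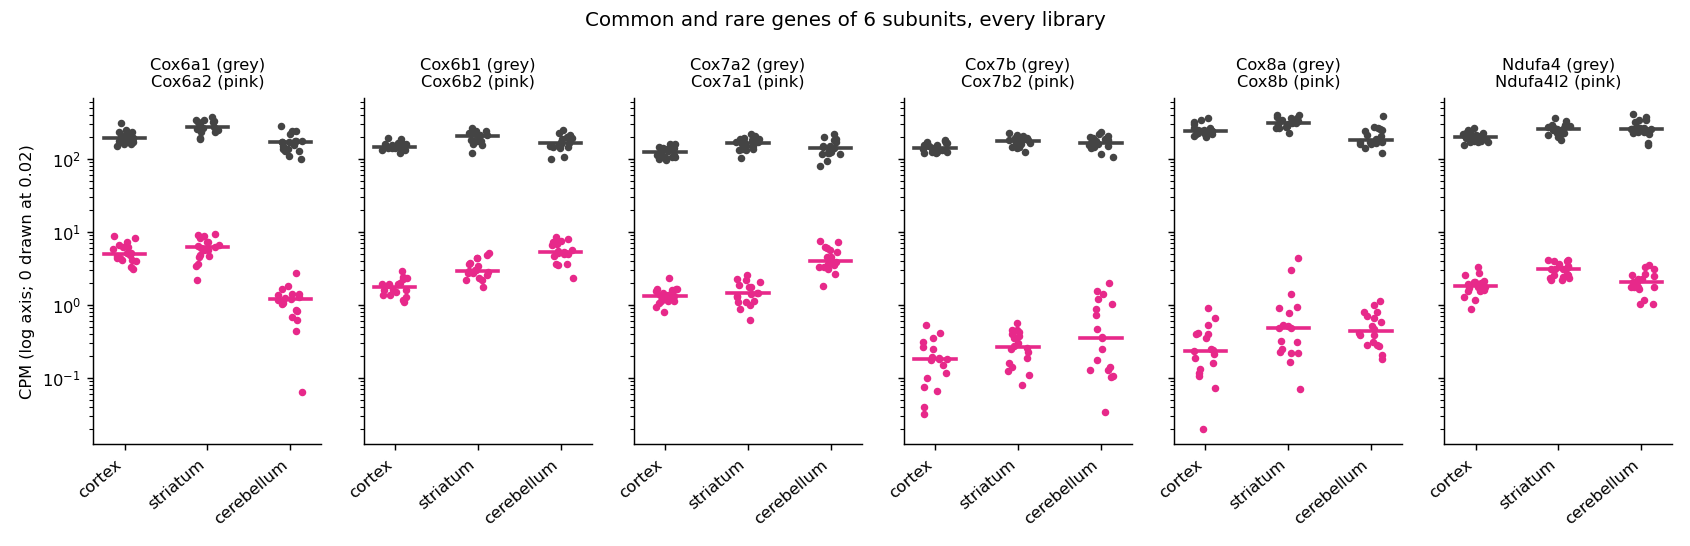
CPM on a log axis (vertical) of the common (grey) and the rare (pink) gene of 6 subunits in the 18 libraries of each region, bars being medians. The rare genes lie 1 to 3 powers of 10 under the common ones in each region; Cox6a2 drops in cerebellum (median 1.18 CPM against 4.95 in cortex) while Cox7a1 and Cox6b2 rise (3.94 and 5.21 against 1.32 and 1.74).

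Other genes of the pathway were counted with the same test. Cox4i1, the common form of complex IV subunit 4, which the symbol rule does not take, was higher in striatum than in cortex by 0.49 ± 0.10 (means 475.4 and 341.9 CPM, edgeR adjusted p = 6.49e-05), and Cox4i2, its lung form, by 1.03 ± 0.18 (2.55 and 1.25 CPM, adjusted p = 5.47e-06). Of 13 subunits encoded in mitochondrial DNA, none was higher and 7 were lower in striatum than in cortex, and none was higher and 11 were lower in cerebellum than in cortex, the opposite of the nuclear members (medians -0.27 and -0.49). Several of these were counted at very unlike depths (mt-Co1 at a mean of 22210 CPM in cortex, mt-Co2 at 7.52), so their levels are uncertain. Of 47 assembly factors, 23 were higher and 12 lower in striatum than in cortex, and 23 and 10 in cerebellum. Of 13 enzymes of the citric acid cycle, 7 were higher and 3 lower in striatum, and 10 higher and 1 lower in cerebellum. Over all genes tested, 28.9% were higher and 30.1% lower in striatum than in cortex, and 35.5% and 33.3% in cerebellum.

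Regulators of nuclear genes for mitochondria were counted in the same way. Of 12, 3 were higher and 5 lower in striatum than in cortex, where 28.9% of all genes were higher and 30.1% lower. The coactivators Ppargc1a and Ppargc1b were lower there, by 0.88 ± 0.11 and 1.27 ± 0.24 (means 30.9 against 55.8 and 3.30 against 7.89 CPM, edgeR adjusted p = 3.07e-09 and 1.72e-05), as were Gabpa, which encodes the ETS subunit of GABP, by 0.50 ± 0.10 and Yy1 by 0.42 ± 0.07. Nrf1 was higher by 0.17 ± 0.06 and Esrra by 0.37 ± 0.10 (adjusted p = 0.015 and 0.000877). In cerebellum 8 were higher than in cortex and none lower, where 35.5% of all genes were higher and 33.3% lower. The 8 included Nrf1 (0.50 ± 0.06), Gabpa (0.51 ± 0.10), Tfam, which packs and transcribes mitochondrial DNA (0.46 ± 0.04), and Polrmt, its RNA polymerase (0.64 ± 0.07), with edgeR adjusted p of 3.26e-10, 7.82e-06, 1.15e-13 and 1.49e-11.

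Within a region, the means of the complexes went together from library to library, as did that of the ribosomal protein genes. Over the 18 libraries of a region, Pearson's r of the mean log2 CPM with that of complex I was 0.85 to 1.0 for complexes II to V. For ribosomal protein genes it was 0.95 to 0.99. In cerebellum, 81 of 82 members were higher in the library with the highest mean over members (Mbd5+/GT mouse M766) than in the lowest (Mbd5+/GT mouse M763), by a median of 2.27-fold. The same held for 80 of 82 members in striatum (WT mouse M761 over Mbd5+/GT mouse M763, 1.92-fold) and in cortex (WT mouse M757 over WT mouse M751, 1.57-fold). The ribosomal protein genes differed between the same libraries, from 5.90 to 7.17 (mean log2 CPM) in cerebellum, 6.77 to 7.67 in striatum and 6.40 to 7.06 in cortex. These pairs were chosen by the mean over the same members, so counts near all of them were largely fixed by the choice. They show the size of the spread and carry no test. Both striatum libraries, of mice M761 and M763, were among those low in striatal markers.

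The main question of the study, the effect of the Mbd5 gene trap, gave no member past the adjusted threshold in any region. By the quasi-likelihood test of edgeR after adjustment, 0 of 82 members were called in cortex, striatum and cerebellum, where 0.0107%, 0.00539% and 0.00551% of all genes were, and DESeq2 also called 0 in each. The counts below are therefore at an unadjusted p under 0.05. In striatum, Mbd5+/GT mice had 0 members higher and 23 lower, where 4.24% of all genes were higher and 3.2% lower. In cortex 1 member was higher and 0 lower (3.96% and 4.51% of all genes), and in cerebellum 0 were higher and 2 lower (0.964% and 1.78%). DESeq2 gave 25 lower members in striatum, 0 in cortex and 2 in cerebellum.

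In striatum the shift was small and spread over all complexes. The median member was lower by 0.11 on the log2 scale (a ratio of 0.925, against -0.01 for all genes). Values were below 0 for 79 of 82 members, for 80 of 82 ribosomal protein genes and for 9911 of all 18546 genes. Below p of 0.05 were 13 of 37 members of complex I, 2 of 4 of complex II, 3 of 9 of complex III, 2 of 15 of complex IV and 3 of 17 of complex V. The medians were -0.12, -0.07, -0.10, -0.11 and -0.11, so no complex stood apart by its median. In complex I, 12 of the 13 were accessory subunits and the other was Ndufs8, a core subunit. In complex III, the 3 were small subunits. Beside this, 12 of 82 ribosomal protein genes were lower and none higher (median -0.08), and members under 600 bases had a median of -0.16 against -0.08 from 1500 bases on.

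The members with the smallest p in each complex were read in every group. Uqcr11 was at 95.1 to 157.9 CPM in WT striatum (median 130.5) and 52.1 to 133.4 in Mbd5+/GT striatum (median 96.4), and the groups overlapped. It was lower by 0.31 ± 0.08 (edgeR p = 0.00103, adjusted p = 0.629). Atp5e was at 93.6 to 169.8 CPM in WT (131.1) and 57.1 to 143.1 in Mbd5+/GT (93.8), lower by 0.35 ± 0.09 (p = 0.00129). Ndufa7, an accessory subunit of complex I, was at 64.6 to 108.5 CPM (88.8) and 39.6 to 90.0 (66.7), lower by 0.26 ± 0.08 (p = 0.00269). For Atp5e and Ndufa7 too, the Mbd5+/GT range began lower and the groups overlapped. Cox6a1 was at 249.3 to 378.1 CPM (296.6) and 183.3 to 343.8 (254.9), lower by 0.16 ± 0.05 (p = 0.00414). Sdhb was at 109.3 to 176.4 CPM (149.4) and 86.0 to 157.2 (122.0), lower by 0.22 ± 0.08 (p = 0.00942). All 5 missed the adjusted threshold at 0.629.

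The striatal difference was not the same in the litters. The mean log2 CPM over the 82 members was lower in Mbd5+/GT mice by 0.47 in litter 1 and by 0.24 in litter 3, and higher by 0.28 in litter 2, which holds a single WT mouse. Uqcr11 was lower by 0.91 in litter 1 and by 0.47 in litter 3 and higher by 0.30 in litter 2, and Atp5e, Ndufa7, Cox6a1 and Sdhb had the same signs. Ribosomal protein genes were lower by 0.51 in litter 1 and by 0.26 in litter 3, and higher by 0.30 in litter 2. Refitted without litter 2, with fewer mice and the surrogate variables estimated anew, 0 members were lower and the median was -0.07, and the cause of the move was not tested. With litter and sex in place of the surrogate variables (unlabelled variation estimated from the counts) 30 were lower with a median of -0.24. Without the 5 striatum libraries under 50% of their own markers (2 WT, 3 Mbd5+/GT) 15 were lower. For these refits the share of all genes is not given here. The share of reads from spike-in RNA also differed between the striatal groups, with medians of 0.517% in WT and 0.194% in Mbd5+/GT libraries, and its part was not tested.

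**Figure D5:**
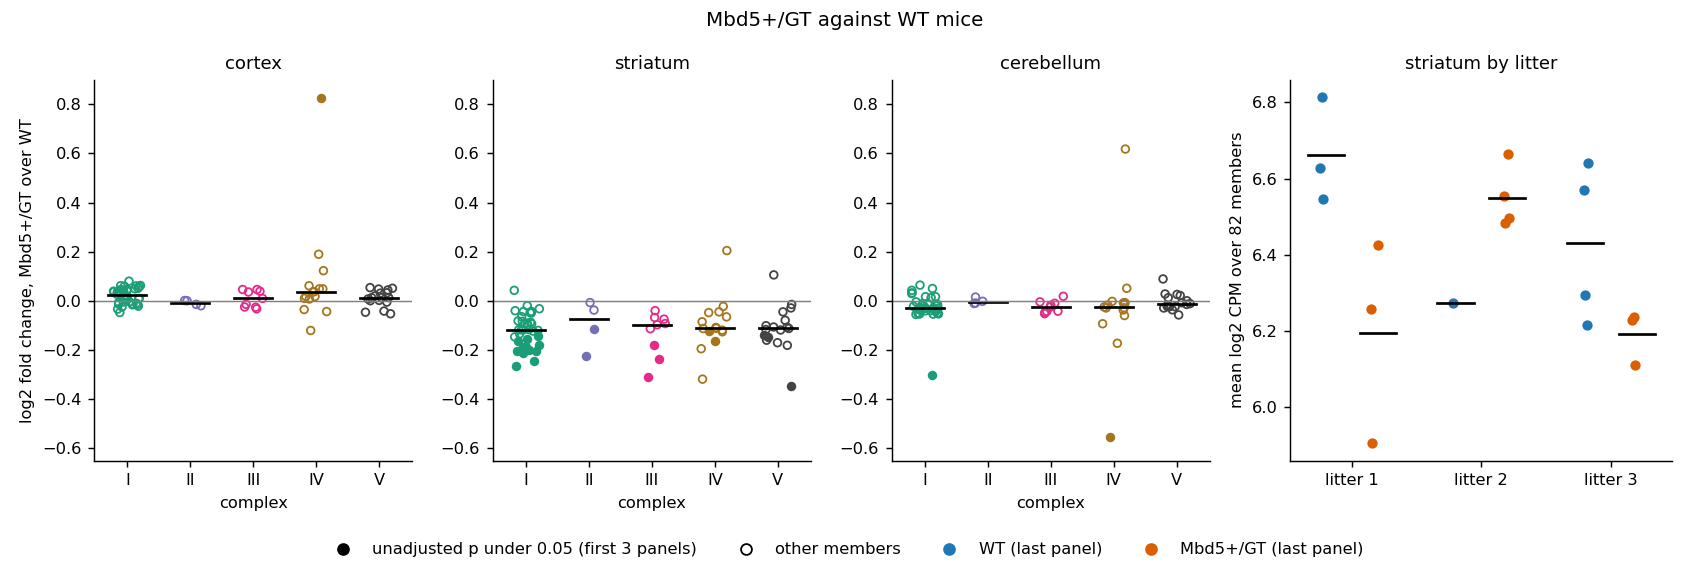
Log2 fold change of Mbd5+/GT over WT mice (vertical axis) for the 82 members by complex in the 3 regions, filled where the unadjusted p was under 0.05, with bars at complex medians. The last panel shows the mean log2 CPM over members for each striatum library by litter and genotype, with bars at means: Mbd5+/GT libraries are lower on average in litters 1 and 3 and higher in litter 2, which holds 1 WT mouse.

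In cortex the median over members was 0.02, and its sign changed with the settings (from -0.06 to 0.05), so no direction is given. The single member under p of 0.05 was Cox8b (0.0730 to 0.401 CPM in WT, 0 to 0.898 in Mbd5+/GT, higher by 0.83 ± 0.37, edgeR p = 0.0402). At most 26 reads stood behind any of its cortical values, and 4 of 5 choroid plexus markers were also higher in Mbd5+/GT cortex at that threshold (median 1.57), a link that was not tested further. Striatal neuron markers were lower in Mbd5+/GT cortex at that threshold in 2 of 8 cases (median -0.43), with sums of 262.1 to 1383 CPM against 179.0 to 2012 in WT cortex, and their part was not tested. In the other complexes the smallest p were those of Ndufa13 (0.08 ± 0.07), Sdha (-0.02 ± 0.04), Cyc1 (-0.02 ± 0.03) and Atp5g3 (-0.05 ± 0.04).

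In cerebellum the median was -0.02 and ran from -0.05 to 0.04 over the settings. Cox6a2 was at 0.436 to 2.73 CPM in WT (median 1.28) and 0.0627 to 1.40 in Mbd5+/GT (1.11), lower by 0.55 ± 0.20 (edgeR p = 0.0131), and Ndufa4l2 was at 1.16 to 3.26 CPM (2.27) and 1.01 to 3.45 (1.90), lower by 0.30 ± 0.12 (p = 0.0208). The groups overlapped for both genes. The other complexes had smallest p for Sdhd (0.02 ± 0.06), Cyc1 (-0.05 ± 0.04) and Atp5s (0.09 ± 0.05).

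Subunits from mitochondrial DNA did not follow the nuclear members in striatum. All 13 had values above 0 in Mbd5+/GT mice (median 0.30), as did 8635 of all 18546 genes. Of the 13, 4 were at an unadjusted p under 0.05, and none passed the adjusted test. Of all genes, 4.24% were higher at that unadjusted threshold and 3.2% lower. The mean log2 CPM of the 13 was higher in Mbd5+/GT mice by 0.69 in litter 1 and 1.11 in litter 2, which holds 1 WT mouse. In litter 3 the difference was 0.03. Of the subunits outside the symbol rule, Cox4i1 was lower by 0.18 ± 0.06 and Cox4i2 by 0.38 ± 0.11 in striatum (edgeR p = 0.00801 and 0.00301, adjusted p = 0.629 for both). Assembly factors were lower in 7 of 47 cases and citric acid cycle enzymes and regulators in none.

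An interaction over all 54 libraries asked whether genotype acted unlike in the regions. It was fitted on group means with no surrogate variables, unlike the genotype tests within each region. By edgeR's quasi-likelihood test 0 members passed the adjusted threshold in any pair of regions, as did 0.0% of all genes. At an unadjusted p under 0.05, 3 members had a larger value in cerebellum than in striatum and 0 a smaller one (1.01% and 1.67% of all genes): Atp5e (0.61 ± 0.27, p = 0.0268), Ndufa7 (0.45 ± 0.21, p = 0.034) and Ndufa3 (0.44 ± 0.21, p = 0.0436), the last named because the count is small. Between striatum and cortex 0 members were under it (3.23% of all genes larger, 0.996% smaller), with the smallest p for Atp5e (0.0659), and between cerebellum and cortex 0 (0.381% and 0.733%), with the smallest p for Cox6a2 (0.133). DESeq2 gave the same counts of 3, 0 and 0. Without litter 2, 23 members had a smaller value in striatum than in cortex and 12 a larger one in cerebellum than in striatum. Without the 7 libraries under 50% the latter count was 0. The share of all genes under these refits is not given here, so these counts are not read as a result about the members. As this fit held no surrogate variables, these counts cannot be set against the count within striatum without litter 2. The striatal effect is thus not shown to differ from that of the other regions.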

How the data were processed

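Gene-level counts of reads, deposited by the authors as 1 table of 54 libraries, were used as raw counts. The submitters' processing notes name STAR 2.4.2 and FastQC 0.10.1, and whether counting used strand is not given in the sources used here. Gene names, exon overlaps and lengths came from GENCODE M21 (Ensembl 96, GRCm38), a later release than the one the authors counted on, and 92 spike-in controls entered neither library sizes nor tests. Genes that exceeded 4 counts in 8 libraries or more were normalised by TMM, and tested with the quasi-likelihood test of edgeR 4.0.16 in R 4.3.3. Genotype was tested within each region with 2, 4 and 4 surrogate variables for cerebellum, cortex and striatum (sva 3.50.0). Regions, and the interaction of region and genotype, were tested over all 54 libraries on group means, with no surrogate variables. P-values were adjusted by Benjamini-Hochberg over all genes tested, with a threshold of 0.05. CPM were computed with TMM-scaled library sizes, and log2 CPM for scores with a prior count of 2. Replicates are separate mice, and no pair of libraries agreed within sampling noise (219 pairs compared).

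The members and gene lists were chosen with earlier results of these data known. Members named with values were those with the smallest genotype p in each region and complex, those with the largest called rise and fall of each complex between each pair of regions, those with the smallest interaction p, all genes of subunits that have more than 1 gene, the genes of complex II, and those that missed the filter. Others are named after their values were seen. The 3 regions of a mouse share its number: deviations from group means had a median same-mouse correlation of 0.0911 between striatum and cortex, 0.164 between cerebellum and cortex and 0.0618 between cerebellum and striatum. The same mouse gave all 3 regions, so the mouse was also fitted as a replicate block. The tests were tried on simulated data: for genotype in striatum, 32.8% of genes changed 1.2-fold had an unadjusted p under 0.05 and 0.0% passed adjustment, against 86.4% and 59.1% at 2-fold (18354 genes). The changed genes were drawn at random from all genes, with noise drawn separately for each gene and no litter effect. The members move together between libraries, so these shares need not hold for them. Alternatives were DESeq2 1.42.0, library size alone, other filters, other surrogate variables, litter and sex, and libraries left out.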

Additional observations from a re-analysis of the deposited data

Results flagged for a closer look

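Sdha in Mbd5+/GT cortex was set apart by 1 library: mouse M766 was at 453 CPM, farther from the nearest of the 10 mice than the spread of the others would give, with a gap of 0.495 of the group's range, beyond Dixon's 95% limit. Each of 60 groups of values of named members was looked at in this way, and chance alone sets apart about 1 in 20. Only this 1 group was set apart, which is fewer than chance alone would give.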

How the results depend on the processing

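Most region counts held. Shares of all genes called under the alternatives are not given here, so a change in a count is not read as a result about the members. Members higher in striatum than in cortex ran from 69 to 73 under all alternatives, and the lower one was lost (0) with library size alone, a stricter filter, no filter, without the repeated libraries and in WT mice. In cerebellum over cortex the lower count was 2 with library size alone, no filter, without the repeated libraries and in WT mice, where the higher count was 30. In cerebellum over striatum the higher count was 9 with the stricter filter, 6 in WT mice and 10 without libraries under 50% of their own markers. With the mouse as a replicate block the counts of higher and lower members were 69 and 1, 46 and 4, and 15 and 38, and the interaction of striatum and cortex gave 2 lower members, the block changing no other count by over 1.5 times.

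The genotype counts depended on the settings, and for these too no share of all genes is given. In striatum the 23 lower members became 9 with no surrogate variables, 10 with one fewer, 10 with the stricter filter, 11 with no filter, 15 without libraries under 50% and 0 without litter 2, while the median stayed below 0 (-0.241 to -0.06). In cortex the higher count was 0 by DESeq2, with no surrogate variables, with litter and sex, with either other filter and without litter 2, and the lower count was 8 with the stricter filter and 6 without litter 2. In cerebellum the higher count was 1 without libraries under 34% or 50%, and the lower count 0 with no surrogate variables or litter and sex, and 1 with one variable fewer, the stricter filter or without litter 2. For the interaction, without litter 2 the striatum and cortex count of lower members was 23 with a median of -0.403, and the cerebellum and striatum count of higher members was 12. The latter was 0 without the repeated libraries, 1 without libraries under 34% and 0 under 50%, where cerebellum and cortex gave 1 lower member. Genotype values near 0 changed sign: Ndufa13 in cortex (-0.007 with the stricter filter, -0.009 without litter 2), Sdha in cortex (0.012 with library size alone and with no filter), Cyc1 in cortex (0.007 with library size alone), Sdhd in cerebellum (-0.006 with litter and sex, -0.021 without litter 2) and Cyc1 in cerebellum (0.023 with no surrogate variables, 0.021 with one fewer). The cause of these changes was not tested. Calls between regions were lost for Sdhc (cerebellum and striatum) under 9 alternatives and Cox6a1 (cerebellum and cortex) under 6. The alternatives that leave out libraries under 34% or 50% were chosen after seeing the data. Members at about 1 CPM or less (Cox6a2 in cerebellum, Cox7b2, Cox8b) rest on few reads.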
